A study of Mus musculus with 4 samples.

Results

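The alleles described here carried 1 contiguous deletion at a Cas9 cut site and at least 1 base beside that deletion that differed from the reference. They were found in male E14 mESCs, a mouse embryonic stem cell line of 129/Ola origin (passages 18 to 28), that had been lipofected with plasmids carrying Cas9 nuclease and 1 sgRNA and selected with puromycin or by GFP. Pools of selected cells were analysed by amplicon sequencing at Site 7 and at Site 9, with 2 replicate libraries for each site and 380601 to 447620 aligned reads per library. Both sites received the same nuclease, and the labels gave no control library to set beside them. An allele is 1 distinct aligned read sequence with its number of reads. Members were the alleles with 1 internal deletion that touched the cut in any equivalent placement, no inserted base and at least 1 mismatch (other than N) at 1 to 10 bp from the deletion on either side. In total, 8529 of 76510 deposited alleles met this rule, with 2327 and 3243 in the 2 libraries of Site 7 and 1622 and 1337 in those of Site 9. A further 32614 alleles had the same kind of deletion without such a mismatch, and these are called plain deletions below. The authors' program called 99.1% to 99.9% of member reads modified.

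Cas9 makes a double-strand break at a fixed position beside the PAM, the short motif next to the target sequence. The broken ends are rejoined by non-homologous end joining, which can trim the ends and add bases before ligation, or through short repeats on both sides of the break, called microhomology, which leaves deletions. A base that differs from the reference next to a junction can be written as a substitution beside a deletion, or equally as a slightly larger deletion with an insert.

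The reference sequences around both cuts are shown first because every junction below is read against them. Coordinates are mm9, the strand is plus, and capitals mark the 3 bases on each side of the cut. The Site 7 window is chr16:92520165-92520204, with the cut between bases 92520184 and 92520185, and the Site 9 window is chr6:92370102-92370141, with the cut between bases 92370121 and 92370122. The label of Site 7 names Runx1, a transcription factor of blood development, but the annotation placed this cut in an intron of Clic6, a member of the chloride intracellular channel family, at 8120 bp from its nearest exon. The Site 9 cut lay in an intron of Prickle2, a planar cell polarity gene, at 15 bp from an exon (92370137 to 92370340).
Site 7 reference: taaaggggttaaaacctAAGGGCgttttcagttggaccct
Site 9 reference: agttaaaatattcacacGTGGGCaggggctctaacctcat

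The 5 most abundant junctions at Site 7 that occurred in both libraries are shown over the same window, with the mismatched base in capitals, together with the most abundant junction with 2 mismatches. Each sequence has the deleted bases left out. The names give the deleted bases and the base change, with the reference base first and its distance from the deletion.
Site 7, AG deleted, T to C at 2 bp left: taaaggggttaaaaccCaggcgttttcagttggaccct
Site 7, G deleted, G to C at 1 bp right: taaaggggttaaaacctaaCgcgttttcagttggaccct
Site 7, AGGG deleted, C to G at 1 bp right: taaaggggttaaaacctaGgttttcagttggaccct
Site 7, GG deleted, G to A at 1 bp right: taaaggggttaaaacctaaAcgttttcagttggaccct
Site 7, G deleted, A to T at 2 bp left: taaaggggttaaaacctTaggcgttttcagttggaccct
Site 7, G deleted, G to A at 1 and 2 bp right: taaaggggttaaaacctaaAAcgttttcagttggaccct

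The 5 most abundant junctions at Site 9 are shown in the same way. In 4 of them the mismatch lay directly beside the deletion, and in 3 a G became an A.
Site 9, GTG deleted, G to A at 1 bp right: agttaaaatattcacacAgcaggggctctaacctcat
Site 9, GTGG deleted, G to A at 1 bp right: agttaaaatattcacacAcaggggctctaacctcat
Site 9, GGG deleted, C to T at 1 bp right: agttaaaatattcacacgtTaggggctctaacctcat
Site 9, GTG deleted, G to T at 1 bp right: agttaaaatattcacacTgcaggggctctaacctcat
Site 9, GT deleted, G to A at 2 bp right: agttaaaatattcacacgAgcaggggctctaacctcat

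The alignments placed every deletion at its leftmost equivalent position, in members and in plain deletions. This fixed part of what can be seen next to the junction. A mismatch of the base directly left of a deletion was found in 0 of 343872, 357048, 209038 and 171186 reads of the 4 libraries (a count of 0 allows up to 0.000840% to 0.00175%). Among reads with a mismatch directly right of the deletion, the mismatched base equalled the first deleted base in none. The side of a mismatch at 1 bp was therefore set by the alignment and not by the read, and distances are given with both sides added unless a side is named.

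Member reads made up a small and repeatable share of reads with a single deletion at the cut. They numbered 21906 and 21255 at Site 7, or 6.37% (Wilson 95% interval 6.29 to 6.45) and 5.95% (5.88 to 6.03) of such reads. At Site 9 they numbered 15579 and 12737, or 7.45% (7.34 to 7.57) and 7.44% (7.32 to 7.57). Each library of Site 9 had a higher share than either library of Site 7, and the site means differed by 1.28 percentage points. Permuting the 2 libraries of each site in an exact two-sided test gave p = 0.333, the smallest p this design can give, so no difference between the sites can pass a threshold of 0.05. When deletions with more than 1 equivalent placement were left out, the difference was 9.996 points, and when each allele was counted once it was 0.555 points. As a share of all aligned reads, members were more frequent at Site 7 (5.34% ± 0.240, SD, n = 2) than at Site 9 (3.41% ± 0.0947, n = 2), where 45.0% and 46.7% of aligned reads had a single deletion at the cut, against 86.5% and 86.9% at Site 7. Intervals and limits describe counting error alone, since the reads carry no molecular identifiers and several can stem from 1 molecule. Nothing in the labels says that the 2 libraries of a site came from separate transfections, so p-values measure the spread between libraries, which may be technical.

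Mismatches were concentrated in the few bases beside the deletion. To keep the membership rule from fixing the result, rates were taken over all reads with a single deletion at the cut, members and plain deletions together. At 1 to 10 bp from the deletion, 0.385% and 0.361% of bases were mismatched at Site 7 and 0.493% and 0.476% at Site 9. Farther than 20 bp from the deletion, the same reads were mismatched at 0.0367%, 0.0392%, 0.0349% and 0.0361% of bases. The near rate was thus 10.5, 9.20, 14.1 and 13.2 times the far rate. The mean difference of 0.392 percentage points (SD 0.0671) was positive in 4 of 4 libraries, with p = 0.125 by an exact two-sided sign-flip permutation test over libraries and 0.15 after Benjamini-Hochberg adjustment over 6 tests. The value of 0.125 is the smallest p that 4 libraries allow, so none of the sign-flip tests below can pass 0.05.

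Within the 10 bp window the rate dropped steeply with distance. Rates here are per base with both sides added, so each read counts 2 bases at a given distance. At Site 7, 1.49% ± 0.151 of bases were mismatched at 1 bp (SD, n = 2), 1.11% ± 0.0599 at 2 bp and 0.566% ± 0.0486 at 3 bp. The next base, at 4 bp, had 0.178% ± 0.0472. At 8 bp the rate was 0.0363% ± 0.00117, which was 0.956 times the far rate. At Site 9, 2.03% ± 0.0251 of bases were mismatched at 1 bp, 1.47% ± 0.0595 at 2 bp and 0.474% ± 0.0274 at 3 bp, followed by 0.324% ± 0.0366 for the fourth base. Farther out the Site 9 means were 0.180% ± 0.0926 at 5 bp and 0.0731% ± 0.0488 at 8 bp, but its 2 libraries differed. Replicate 1 had 0.245% at 5 bp and 0.108% at 8 bp, the latter 3.08 times its far rate. Replicate 2 had 0.114% and 0.0386%, the latter 1.07 times its far rate. Of the 2, only replicate 1 was thus well above its far rate at 8 bp. Since the left neighbour never differed, the share of reads mismatched at 1 bp equals the rate directly right of the deletion, 3.19% and 2.77% at Site 7 and 4.01% and 4.09% at Site 9. The rate at 1 bp exceeded the rate at 2 to 10 bp by 1.48 percentage points on average (SD 0.286), in 4 of 4 libraries (exact sign-flip permutation test, p = 0.125, adjusted 0.15). Just inside the 10 bp limit, at 10 bp, the site means were 0.0375% and 0.0474%. At 11 to 20 bp, just outside it, they were 0.0238% and 0.0308%, which was 0.627 and 0.869 times the far rate.

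**Figure D1:**
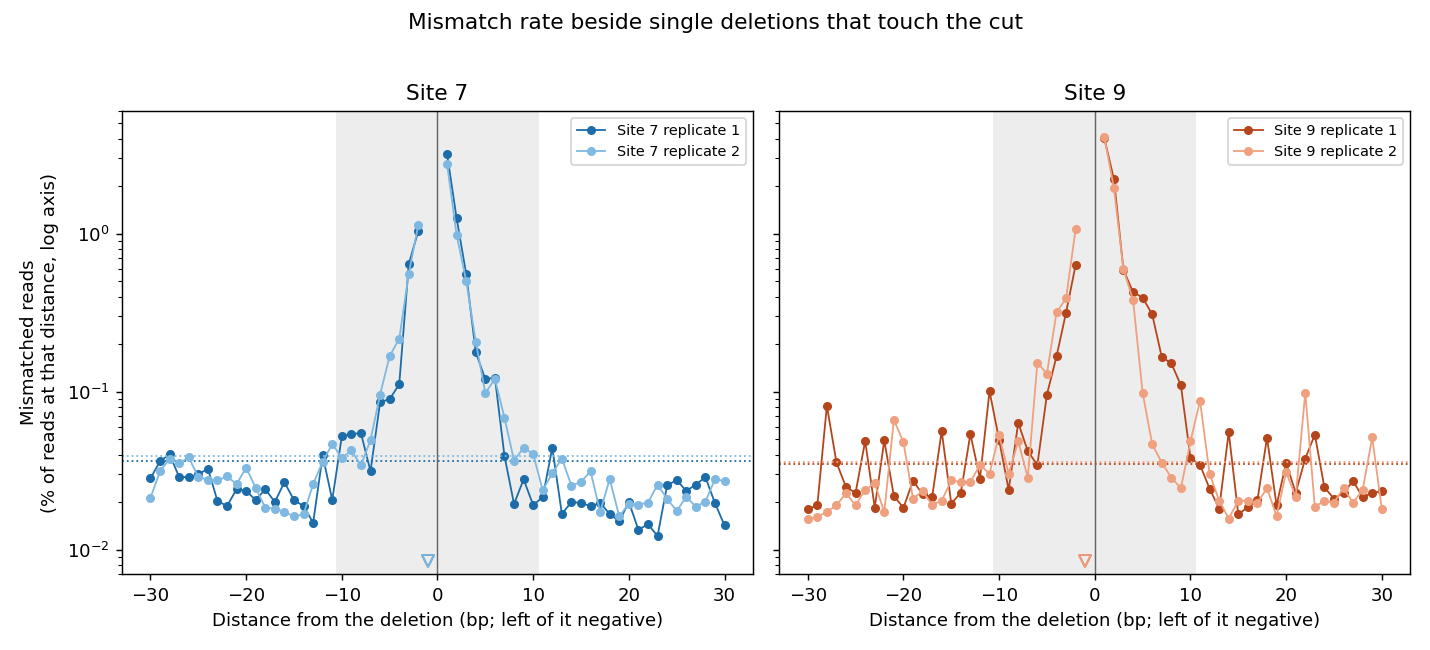
Mismatch rate, as a percent of reads on a log axis, against distance from the deletion in bp (negative to its left), for each of the 4 libraries over all reads with a single deletion at the cut. Points joined by lines are single distances, grey shading is the 10 bp window, dotted lines are each library's rate beyond 20 bp (0.0349% to 0.0392%), and open triangles mark a distance with 0 mismatches. The rate is highest directly right of the deletion, at 2.77% to 4.09%, and is 0 directly left of it in all 4 libraries because of the leftmost placement.

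In members, 84.7% ± 3.10 of near mismatches at Site 7 and 82.0% ± 4.30 at Site 9 lay at 1 to 3 bp (SD, n = 2 each). The nearest mismatch was directly beside the deletion in 48.3% ± 2.60 of member reads at Site 7 and 54.4% ± 0.738 at Site 9, at 2 bp in 30.1% ± 1.28 and 31.8% ± 0.181, and at 3 bp in 12.04% ± 1.06 and 6.21% ± 1.12. Most member reads carried 1 near mismatch, namely 83.1% ± 0.584 at Site 7 and 81.2% ± 0.457 at Site 9. More than 3 near mismatches were carried by 0.914% ± 0.118 and 3.14% ± 0.659 of them. Where there were 2 or more, they formed a single unbroken run on 1 side of the deletion in 65.2% ± 4.71 of such reads at Site 7 and in 37.4% ± 4.45 at Site 9.

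The concentration beside the junction differed between alleles of different abundance, with no steady rise. Alleles seen in 1 read were 61.9% to 83.2% of member alleles in the 4 libraries but held only 8.36% to 9.44% of member reads. With each allele counted once, 60.2% and 57.9% of near mismatches of these alleles lay at 1 to 3 bp at Site 7, and 56.0% and 55.4% at Site 9. In alleles with 10 reads or more the shares were 81.5% and 82.6% at Site 7 and 75.9% and 84.3% at Site 9. Alleles with 2 to 9 reads did not lie between them, with 37.2% and 63.0% at Site 7 and 40.9% and 41.7% at Site 9, below the alleles with 1 read in 3 of 4 libraries. Alleles with 10 reads or more were above those with 1 read in each of the 4 libraries, while at 5 to 10 bp the order of these classes was the reverse, with 31.8% to 36.4% of near mismatches in alleles of 1 read and 6.81% to 15.9% in those of 10 reads or more.

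**Figure D2:**
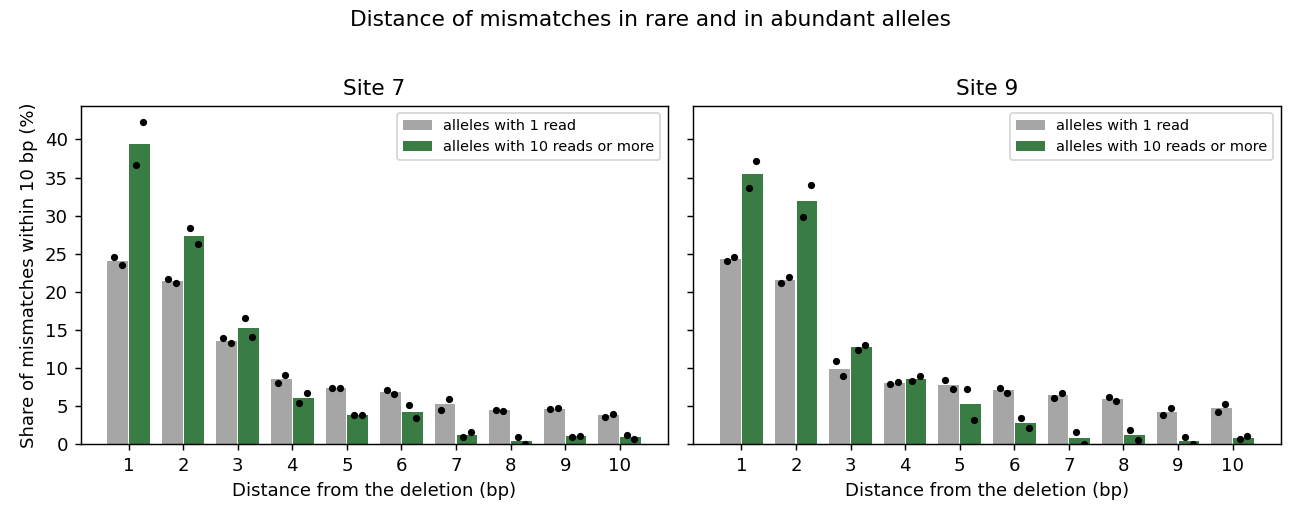
Share of mismatches within 10 bp (%) at each distance from the deletion (bp), with each member allele counted once, for alleles with 1 read (grey) and alleles with 10 reads or more (green). Bars are means of 2 libraries and points are the single libraries. Alleles with 10 reads or more have higher bars at 1, 2 and 3 bp, and alleles with 1 read keep a tail out to 10 bp.

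The base changes near the junction differed from those farther away in the same member reads. Changes are given on the plus strand of mm9, as shares of all mismatches in members and as means of the 4 libraries unless a site is named. G to A had the largest near share at 22.0%, against 11.8% beyond 20 bp, and was higher near the junction in 4 of 4 libraries by a mean of 10.2 percentage points (SD 7.42). This rank came from Site 9, where G to A had 29.6% of near mismatches. At Site 7 it had 14.4%, below G to C (17.8%) and T to C (17.2%). G to C followed the same direction in 4 of 4 libraries, with 13.3% near and 4.61% far. T to G had the smallest near share, 3.09% against 7.73% far, and was lower near the junction in 4 of 4 libraries, as were A to C, A to G and C to A. At Site 9 its near share was 1.86%, but at Site 7 it was 4.32%, above those of C to A (2.98%) and A to G (3.72%). For these 6 of 12 changes with 1 direction in all libraries, the exact sign-flip permutation test gave p = 0.125 and 0.25 after adjustment over the 12 changes, so none passed. The G to A difference was not kept in deletions with a single placement, where it was -1.46 points, nor in alleles with at least 10 reads, where it was -7.02 points. The T to G difference was 2.64 points in alleles with at least 10 reads.

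G was the reference base most often mismatched beside the deletion at both sites. In member reads, 11.99 ± 1.35 of every 100 reference G within 10 bp were mismatched at Site 7 and 14.8 ± 0.246 at Site 9 (SD, n = 2). The other 3 bases lay between 2.30 and 5.86 per 100. Beyond 20 bp the rate for G was 0.0639 and 0.0563 per 100, within the range of the other bases (0.0428 to 0.0651). The level near the junction is raised by the rule, which asks for a mismatch there. A run of G lies at both cuts, as the reference sequences show, and the leftmost placement writes every mismatch at 1 bp on the base right of the deletion. The part of either in the order of the bases was not tested.

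The new base differed between the sites. At Site 7 the near mismatches read C in 41.2% ± 2.36 and T in 23.0% ± 1.47, whereas at Site 9 they read A in 40.0% ± 1.67 and T in 35.0% ± 0.417. G was the least frequent new base at both, with 13.7% ± 0.0802 and 10.4% ± 0.355. G was however the reference base of 41.3% ± 3.15 and 53.6% ± 1.69 of near mismatches, which cannot read G, and at 1 bp the new base can never equal the first deleted base. Transversions, changes between a purine and a pyrimidine, made up 57.8%, 61.6%, 51.9% and 48.6% of near mismatches and 65.9%, 66.5%, 62.9% and 50.8% of far ones. The share was lower near the junction in 4 of 4 libraries, with a mean difference of -6.55 points (SD 3.84; exact sign-flip permutation test, p = 0.125, adjusted 0.15). In alleles with at least 10 reads the difference turned to 20.9 points in the other direction.

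Because substitution and insertion cannot be told apart at a junction, each member read was also rewritten as the larger deletion and insert that lie between its longest matching flanks. In this form an insert of 1 base accounted for 49.97% ± 1.03 of Site 7 member reads and 62.0% ± 0.256 of those of Site 9 (SD, n = 2). Inserts of 2 bases followed with 25.5% ± 1.41 and 14.6% ± 1.24, those of 3 bases with 11.1% ± 0.00614 and 8.45% ± 0.889, and those of 6 or more with 6.59% ± 1.12 and 6.79% ± 0.795. Junctions that the alignment wrote with an inserted base are not members, so these lengths do not describe all inserts at the cuts. The single inserted base was C in 44.1% and 33.6% of such reads in the 2 Site 7 libraries, A in 23.9% and 25.4%, T in 17.6% and 24.9% and G in 14.4% and 16.1%. At Site 9 it was A in 43.4% and 46.9%, T in 37.4% and 37.3%, C in 8.75% and 11.01% and G in 10.5% and 4.85%. C was first at Site 7 and A at Site 9 in both libraries of each site. By this rewriting, a single inserted base can never equal the first or the last base of the rewritten deletion. A run of G lies at both cuts, and the part of the reference in the order of the inserted bases was not tested. The most abundant Site 7 junction, for example, becomes a deletion of TAAG (92520181 to 92520184) with CA in its place, and the most abundant Site 9 junction becomes a deletion of GTGG (92370119 to 92370122) with A in its place.

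A small number of junctions held many of the reads. At Site 7, the 2963 distinct combinations of a deletion and its near mismatches had 43161 reads, and 47 of them held 50% of these reads. At Site 9 there were 1585 combinations with 28316 reads, and 52 of them held 50%. The 5 shown above held 17.5% of reads at Site 7 and 17.6% at Site 9.

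The Site 7 junction with AG deleted and T to C had 1048 and 1418 reads, or 4.78% and 6.67% of member reads and 2.71% and 3.85% of all reads with that deletion. It was the most abundant junction with no mismatch directly beside the deletion. G deleted with G to C had 1012 and 460 reads, which differed 2.13-fold as a share of member reads. AGGG deleted with C to G had 689 and 682 reads and made up 15.1% and 12.003% of the reads with that deletion. These reads thus formed a larger part of their deletion than those of the G deletion did. GG deleted with G to A had 670 and 513 reads, and G deleted with A to T had 678 and 381. The junction with 2 adjacent G to A changes had 664 and 274 reads, and as an insert it reads AA in place of GGG.

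At Site 9, GTG deleted with G to A had 794 and 987 reads, or 5.10% and 7.75% of member reads and 11.7% and 20.2% of the reads with that deletion. GTGG deleted with G to A had 625 and 555 reads. GGG deleted with C to T had 497 and 447 reads, which were 65.4% and 58.6% of all reads assigned to that deletion, so that the form with the mismatch was more frequent than the form without it in both libraries. GTG deleted with G to T had 362 and 254 reads, and GT deleted with G to A had 278 and 179. The most abundant Site 9 junction with 2 mismatches was of another kind, a deletion of 70 bp (92370121 to 92370190) with A to G at 3 bp and G to A at 4 bp to its right. It had 164 reads of 1 allele in replicate 2 and 0 in replicate 1, where the count of 0 is out of 15579 member reads.

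**Figure D3:**
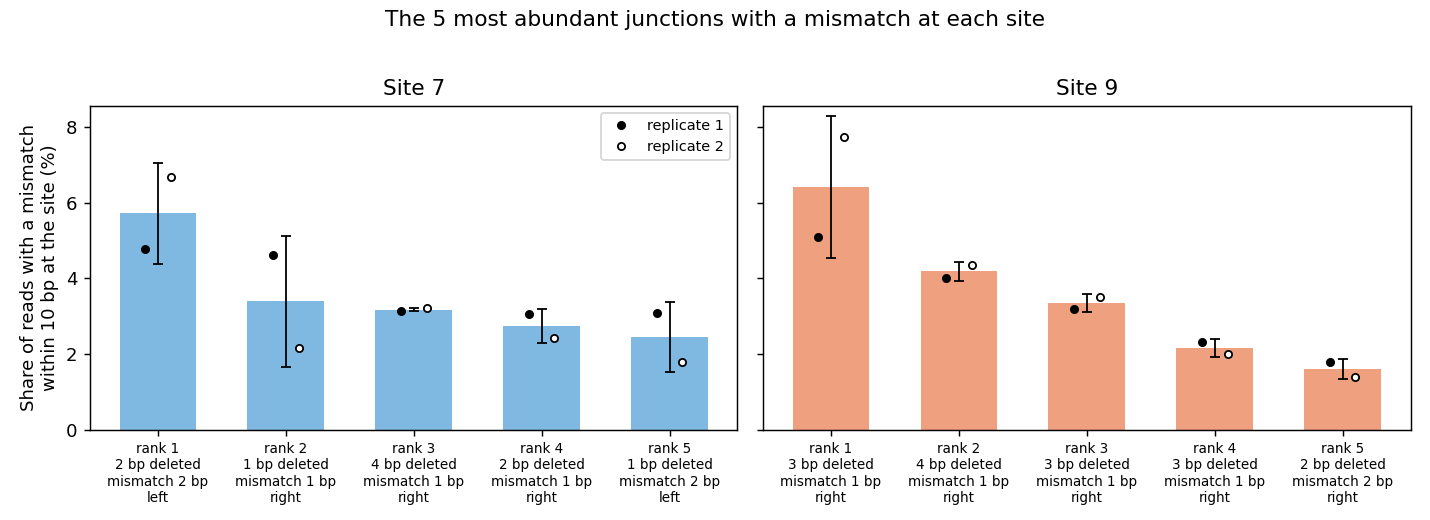
Share of member reads of the site (%) for the 5 most abundant junctions found in both libraries, in order of their reads, with the deletion size and the distance and side of the mismatch under each bar. Bars are means and error bars SD of 2 libraries, filled circles replicate 1 and open circles replicate 2. All 10 bars lie between 1.59% and 6.42%, and the libraries are farthest apart for rank 2 at Site 7 (4.62% and 2.16%) and rank 1 at Site 9 (5.10% and 7.75%).

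The share of reads that were mismatched beside the junction differed widely between deletions as deposited. The 1 bp deletion of G at the Site 7 cut gave 3984 and 2742 member reads in 158 combinations, 5.44% and 3.95% of its reads. The AG deletion gave 3.38% and 4.69%, and the GG deletion 4.78% and 5.13%. At Site 9, the GTG deletion gave 1363 and 1308 member reads in 46 combinations, which was 20.01% and 26.8% of its reads, whereas the G deletion gave 4.67% and 6.04% and the GG deletion 7.85% and 7.67%. Among deletions with at least 100 reads, members exceeded 10% of the reads for 87 of 302 at Site 7 and 85 of 279 at Site 9, and exceeded 50% for 9 and 19. No member read was found for 32 and 66 of them, and the median share was 3.48% and 0.901%.

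Members were more frequent among deletions of 3 to 19 bp than among those of 1 bp or of 20 bp or more. At Site 7 they made up 4.69% ± 1.06 of reads with 1 bp deleted, 4.37% ± 0.687 with 2 bp, 8.40% ± 0.507 with 3 to 9 bp, 8.01% ± 0.447 with 10 to 19 bp and 3.82% ± 0.634 with 20 bp or more (SD, n = 2). The order at Site 9 was similar at the ends, with 5.36% ± 0.965 for 1 bp and 4.23% ± 0.362 for 20 bp or more. Deletions of 2 bp, however, had 11.1% ± 0.988 there, the largest mean of that site. Deletions of 3 to 9 bp and of 10 to 19 bp at Site 9 had 8.73% ± 1.05 and 10.2% ± 1.44, which did not differ beyond their spread. The mean deletion in member reads was 8.45, 10.5, 10.7 and 11.7 bp, against 9.56, 11.2, 14.2 and 16.2 bp in plain deletions, and was thus smaller in 4 of 4 libraries with a mean difference of -2.44 bp (SD 1.86; exact sign-flip permutation test, p = 0.125, adjusted 0.15). The medians did not follow this at Site 7, where they were 6 and 7 bp in members and 4 and 5 bp in plain deletions, while at Site 9 they were 6 bp against 8 bp in both libraries. Among deletions with a single placement the difference of means was 0.481 bp in the other direction. All sizes here are those of the gap as deposited. Rewritten as a deletion with an insert, a member has a larger deletion, as with AG at Site 7, which becomes TAAG. A plain deletion keeps its size, so the size difference and the size classes depend on this notation. Its part in them was not tested.

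**Figure D4:**
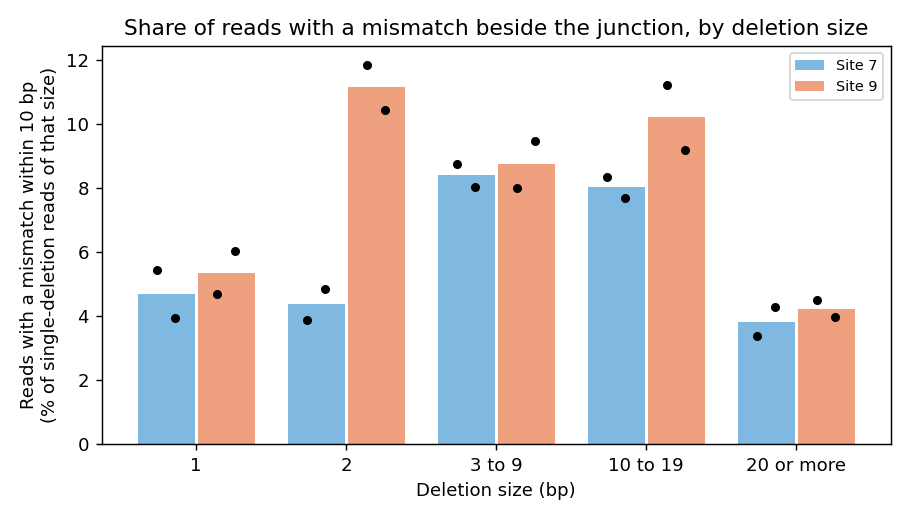
Member reads as a percent of all reads with a single deletion of that size at the cut, against deletion size in bp, for Site 7 (blue) and Site 9 (orange). Sizes are those of the gap as deposited. Bars are means of 2 libraries and points the single libraries. Deletions of 3 to 19 bp lie between 7.70% and 11.2% in all 4 libraries, and those of 20 bp or more between 3.37% and 4.48%.

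A deletion with a single possible placement has no microhomology of even 1 base at its junction. Such deletions made up 43.5%, 48.2%, 40.2% and 34.3% of member reads, against 37.5%, 36.8%, 14.8% and 13.4% of plain-deletion reads. The difference of 15.9 percentage points (SD 8.78) had the same direction in 4 of 4 libraries (exact sign-flip permutation test, p = 0.125, outside the adjusted family). This count slides the deletion as deposited along the reference alone and does not use the mismatches of the read. In members it thus describes the reference at the deposited gap, so the size of the difference depends on the alignment.

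Side was described at 2 to 10 bp, where the leftmost placement did not fix it in every read. A run of mismatches that starts at 1 bp is still written on the right at these distances. The part of such runs in the shares was not tested. At 2 to 10 bp, 51.9% and 47.2% of near mismatches at Site 7 lay right of the deletion, and 75.5% and 59.1% at Site 9. The PAM lies to the left at Site 7 and to the right at Site 9. At these distances neither side led at Site 7, while the right side led in both libraries of Site 9. Over all distances the PAM-side share came to 28.2% and 32.6% at Site 7 and 85.5% and 76.6% at Site 9. Included are the mismatches at 1 bp, 39.9% and 41.8% of the near mismatches of the sites, which the alignment always writes on the right, so that it lowers the share at Site 7 and raises it at Site 9. No difference between the sites is read from them.

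Part of the junctions recurred between libraries. Of 5102 distinct member alleles at Site 7, 468 were in both libraries, or 9.17%, against 12.1% of all deposited alleles of the site. Site 9 had 176 of 2783, or 6.32%, against 11.4%. Plain deletions recurred more often, at 17.2% and 16.1%. With a minimum of 10 reads in each library, 26.1% of member alleles were in both libraries at Site 7, against 25.7% of all alleles and 43.1% of plain deletions, and at Site 9 13.6%, against 21.1% and 43.3%. Member recurrence at Site 7 with this minimum was thus near that of all alleles. Counted as combinations of deletion and near mismatches, 490 of 2963 at Site 7 were in both libraries and held 72.3% of the reads, and 195 of 1585 at Site 9 held 50.5%. Of those with at least 10 reads in each library, 128 at Site 7 and 43 at Site 9, the shares of the 2 libraries differed by a median of 1.68-fold and 1.67-fold, and 81 and 25 differed by at most 2-fold. Combinations found in 1 library alone reached 134 reads at Site 7 and 318 at Site 9, and 4 and 21 of them had at least 100 reads.

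Far from the junction, member reads also had more mismatches than plain deletions. Beyond 20 bp the rate was 0.0611% and 0.0579% in members and 0.0350% and 0.0381% in plain deletions at Site 7. The corresponding values at Site 9 were 0.0502% and 0.0536% against 0.0336% and 0.0346%. The mean difference of 0.0203 percentage points (SD 0.00406) was positive in 4 of 4 libraries (exact sign-flip permutation test, p = 0.125, adjusted 0.15). It was 0.00164 in alleles with at least 10 reads. It was -0.364 with each allele counted once and -0.367 in alleles with 1 read. Reads with the same deletion and the same near mismatches are separate alleles only if they differ elsewhere. The part of this in the direction was not tested.

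Reads without any gap gave a second comparison at matched bases. The sites went opposite ways only when the bases beside the cut were counted. At Site 9, with 152014 and 143928 such reads, reference bases within 10 bp of a deletion were mismatched 4.11 and 6.29 times as often as the same bases, in the same proportions, in reads without a gap. The base most often mismatched in the reads without a gap was 92370122, directly beside the cut, at 2.20% and 1.27%. Site 7 had only 3675 and 5591 reads without a gap, and 76.9% and 74.0% of them were mismatched at base 92520184, beside the cut, so the ratio was 0.294 and 0.329. When bases within 3 bp of the cut were left out, the ratios were 0.817 and 1.66 at Site 7 and 5.78 and 7.95 at Site 9. The libraries of Site 7 then differed in direction, and its second library went the same way as Site 9.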

How the data were processed

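Genomic DNA of selected cell pools was amplified around each target with Illumina adapters added by PCR, and sequenced. The authors trimmed the reads (Trim Galore 0.3.1, per the submitters' processing notes) and ran CRISPResso, which aligned reads to the amplicon and merged identical alignments. The deposited count of an allele is its number of reads, not normalized, and the deposited percent is relative to all aligned reads and was used only to check the counts. The program settings are not given in the sources used here. Coordinates are mm9.

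End gaps were ignored. Mismatch rates are mismatched bases over bases read, weighted by reads. The members, the lists and the junctions named were chosen with earlier results of these data known. Named junctions were, at each site, the 5 with most reads among those in both libraries, the most abundant with 2 or more near mismatches and the most abundant with no mismatch at 1 bp, besides the 3 deletions with most member reads and the base changes with the largest and smallest near share. Groups were the 2 sites of the labels. Differences were tested over libraries with exact two-sided permutation tests (scipy 1.17.1, numpy 2.4.6, pandas 2.3.3). Shares of single libraries have 95% Wilson intervals, and 3 reads were the limit that a count of 0 allows. The scripts were tested on simulated data. Alternatives changed the window (5 bp), the placement, the read minimum (10), the counting of alleles, the far region (21 to 50 bp), the read ends and the libraries used. Rewriting junctions as inserts, alleles with 1 read, side at 4 to 10 bp and transversions without distance 1 were added after seeing the data. Untreated libraries were not analysed here.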

Additional observations from a re-analysis of the deposited data

Results flagged for a closer look

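In 4 results every library of Site 7 went one way and every library of Site 9 the other. These differences between the sites were not tested. The C to T share of near mismatches less its far share was -3.30 percentage points at Site 7 and 5.46 at Site 9, a difference of 8.75. For G to T the same values were -5.96 and 5.30, which differ by 11.3. For T to C they were 9.56 and -12.3, a difference of -21.8 (Site 9 less Site 7). The Site 9 value has an SD of 10.1 over 2 libraries, with -5.12 in replicate 1 and -19.4 in replicate 2, where the far share of T to C was 22.1% against 7.08% in replicate 1. The PAM-side share of near mismatches less the share of near bases was -19.6 points at Site 7 and 31.1 at Site 9, a difference of 50.7. The leftmost placement writes every mismatch at 1 bp on the right, and the PAM lies to the left at Site 7 and to the right at Site 9, so the opposite directions were in part fixed by the alignment. At 2 to 10 bp, 51.9% and 47.2% of mismatches lay right of the deletion at Site 7, with no common direction, and 75.5% and 59.1% at Site 9. A run of mismatches that starts at 1 bp is written on the right at these distances too.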

How the results depend on the processing

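Across 12 results and 19 alternatives, 9 of 163 values turned direction. Another 4, which were counts of base changes or shares of member alleles in both libraries, moved by more than 1.5 times. The remaining 150 kept their direction, but not always their size. The site difference in member share, for example, ranged from 0.555 to 9.996 points. The near-to-far difference in mismatch rate (0.361 to 0.773 percentage points) and the excess at 1 bp (1.19 to 3.503) were positive under all 16 alternatives run for each. With deletions of 1 placement only, the size difference was 0.481 bp, G to A was -1.46 points and 3 base changes kept 1 direction, as did 3 with the far region at 21 to 50 bp, against 6. With alleles of at least 10 reads, the transversion difference was 20.9 points, G to A -7.02, T to G 2.64, and 26.1% and 13.6% of member alleles at Site 7 and Site 9 were in both libraries. The far-rate difference was -0.364 with each allele counted once and -0.367 with alleles of 1 read. Leaving out 1 library at a time, the mean PAM-side share less 50%, 5.72 points over all 4 libraries (SD 29.5, exact sign-flip permutation test, p = 0.75), ranged from -4.21 to 14.9, and it carries the side that the alignment sets at 1 bp. The cause of these shifts was not tested. Replicate numbers were shared between the sites, but with 2 pairs (r = 0.24 over 20 distances) they mark only a number. With a replicate block the site difference was 1.28 points (p = 0.5, exact, the smallest it allows). Depth limits junctions of few reads, and 2 libraries per site limit every test.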
